A study of Mus musculus with 6 samples.

Results

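The kinesins of Hdac11-deficient and wild-type mouse myoblasts were examined at the first day of differentiation. Kinesins were taken as all rows of the gene table whose symbol is Kif or Kifc followed by a number and an optional letter, which gave 39 of the 21778 genes. They were divided by role, with earlier results of these data known, into 12 mitotic, 15 transport and 6 cilium kinesins and 6 others. Kif2a and Kifc5b, relatives of the mitotic Kif2c and Kifc1, were placed among the others. All counts of mitotic kinesins leave these genes out and depend on this choice. Of the 39 kinesins, 36 passed the filter on low counts. Cenpe and Stard9, kinesins with other symbols, were treated as related genes.

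The 3 knockout (KO) libraries came from Hdac11-/- mice and the 3 wild-type (WT) libraries from WT littermates, all C57BL/6. The sources used here give no ages. The KO is a whole-animal deletion, in which a CRE recombinase driven by the SOX2 promoter removed the loxP-flanked exon 3 of Hdac11, a histone deacetylase gene, so that a stop codon arises early in the reading frame. Cells positive for alpha 7-integrin and CD34 were sorted from hindlimb muscle, grown as primary myoblasts, plated at high density and kept for 24 hours in differentiation medium with little serum before polyadenylated RNA was sequenced. The series describes the libraries of each group as biological replicates, but does not tie each to an animal in the sources used here, so p-values measure the spread between these cultures.

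Kinesins are motor proteins that use ATP to walk along or take apart microtubules. Mitotic kinesins build the spindle, move chromosomes and drive cytokinesis, and their transcripts accumulate in late S, G2 and M phase of dividing cells. Many of these roles are known from human cells and frog egg extracts. Transport kinesins carry vesicles, organelles and RNA, and in muscle kinesin-1, whose motor subunit is Kif5b, is known for moving nuclei within the growing myotube. Myoblasts leave the cell cycle as they differentiate and fuse, so a day-1 culture can hold both cycling and post-mitotic cells.

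Library totals were 16742457 to 20287743 counts in KO and 19673388 to 22835394 counts in WT. Levels are given in CPM, the count of a gene scaled to a library size adjusted by TMM, edgeR's trimmed mean method. Values of single libraries are listed in the order of replicates 1, 2 and 3 of each group. Hdac11 itself had 33.5, 76.4 and 30.2 CPM in KO, against 62.99, 79.5 and 73.8 CPM in WT. The library labelled KO replicate 2 lay within the WT range, and an exact permutation test, two-sided, on the Hdac11 level gave p = 0.3, where 0.1 is the smallest p that 3 against 3 allows. Exonic reads outside the deleted exon also count towards this gene, so its level is a partial check of the label. The summed level of 6 proliferation markers was 828 to 1300.0 CPM in KO and 277 to 494 CPM in WT, with all 6 log2 fold changes above 0. That of 8 myoblast and myocyte markers was 8708 to 17563 CPM in KO and 16428 to 38936 CPM in WT, with 1 of 8 above 0. Myh3 was the largest part of this sum in every library. The log2 fold changes (KO over WT) were -0.05 for Myod1, -0.02 for Myf5 and 0.66 for Pax7. Those of the other markers in this list ran from -1.73 (Myh3) to -0.45 (Cdh15). Among markers of other cells, 4 fibroblast genes of 6 listed summed to 2.43 to 4.13 CPM in KO and 3.96 to 5.24 CPM in WT, and 4 of 4 endothelial genes to 1.48 to 4.01 CPM in KO and 1.59 to 2.86 CPM in WT. For immune cells 2 of 4 genes summed to 5.31 to 6.89 CPM in KO and 5.30 to 15.8 CPM in WT, and for Schwann cells 2 of 3 summed to 3.22 to 5.23 CPM in KO and 6.11 to 10.4 CPM in WT. The other listed markers, adipocyte ones included, were not analysed here. The part of all these markers in the kinesin results was not tested. In bulk RNA, fewer cells of a type and less RNA per cell cannot be told apart.

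Whether the loss of Hdac11 was accompanied by a shift between mitotic and transport kinesins was addressed by the KO against WT contrast. All 12 mitotic kinesins had higher levels in the 3 KO cultures than in any WT culture, with log2 fold changes (KO over WT) of 1.30 to 1.71 and a median of 1.51. Their relatives Kif2a and Kifc5b, placed among the others, were at 0.21 with overlapping groups and at 1.14 without overlap. The 14 tested transport kinesins had a median of -0.28, with 11 below 0 and 3 above. Log2 fold changes were above 0 for 49.2% of all 14835 tested genes, and the median of all tested genes was -0.01. Medians were 1.67 for mitotic and -0.45 for transport kinesins without the library labelled KO replicate 2, and the transport median was -0.13 without KO replicate 3 and -0.17 without WT replicate 2. Only Kif5b and Kif1b among the transport kinesins had all KO cultures below all WT cultures. Groups without overlap were found with KO above WT for 13.2% of all tested genes and with KO below WT for 10.2%, and log2 fold changes of at least 1 were found for 5.59% of all genes and for 12 of 12 mitotic kinesins.

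edgeR's quasi-likelihood test with Benjamini-Hochberg adjustment over all genes called 0 of 36 kinesins, against a background of 0% of all genes, at an adjusted p under 0.05, and limma-voom also called 0 kinesins (0% of all genes). At an unadjusted edgeR p under 0.05, 14 kinesins were higher in KO (9.88% of all genes) and 2 were lower (7.83% of all genes). DESeq2's Wald test on the same counts called 16 kinesins, against 6.34% of all genes, of which 14 were higher (4.13% of all genes) and 2 lower (2.21%). The 14 were the 12 mitotic kinesins, Kif7 and Kifc5b, and the 2 were Kif5b and Kif1b, which lie at chr18:6201005-6241524 and chr4:149176319-149307773 (RefSeq, GRCm38.p6). The authors' deposited table gave adjusted p-values under 0.05 for 15 kinesins, against 6.33% of the genes to which it gives one. Of these, 14 were higher in KO (4.20%) and 1, Kif5b, was lower (2.13%).

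**Figure D1:**
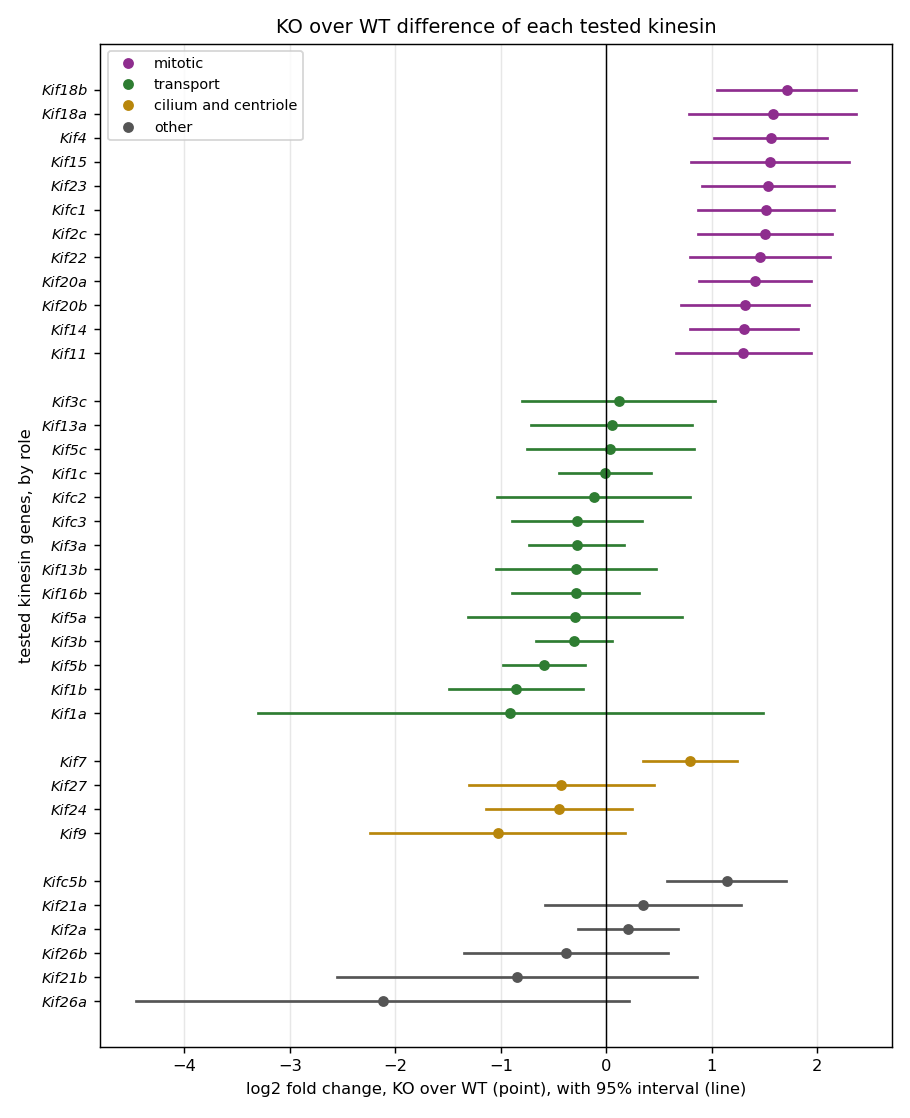
The plot shows the log2 fold change (KO over WT, x axis) of each tested kinesin with its 95% confidence interval from edgeR, grouped by role, with n = 3 cultures in each group. All 12 mitotic kinesins lie between 1.30 and 1.71, whereas the 14 transport kinesins lie between -0.91 and 0.12.

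The start-site regions of mitotic kinesins were compared with those of transport kinesins and of all genes. The cell cycle genes homology region (CHR) is an element of promoters active in G2 and M phase, bound by MuvB-containing complexes, and CCAAT boxes are bound by NF-Y. Windows from 250 bases before to 50 after the RefSeq start (GRCm38.p6) were searched on both strands for the CHR spelled TTTGAA or TTCGAA, for CCAAT, and for 4 E2F-like spellings, TTTCCCGC, TTTGGCGC, TTTCGCGC and TTTGCCGC. A match describes the letters and does not show that a factor binds. Windows were held for 31 of the 39 kinesins, 35 windows in all, and no match of one motif overlapped a match of another.

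A CHR spelling occurred in 10 of 11 mitotic kinesin windows (90.9%), in 1 of 12 transport kinesin windows (8.33%, Kif1a), in 14.3% of windows of the genes in the count table and in 19.2% of all 32851 windows. Both a CHR spelling and CCAAT were found in 7 of 11 mitotic windows, in 0 of 12 transport windows and in 5.84% of windows of the genes in the count table. Within 30 bases of the start, a distance chosen after the positions were seen, a CHR spelling lay in 8 of 11 mitotic windows, those of Kif11, Kif15, Kif18b, Kif20b, Kif22, Kif23, Kif4 and Kifc1, in 0 of 12 transport windows and in 2.40% of windows of the genes in the table. Kif14 and Kif2c carried one farther upstream, at -228 and -103, and Kif18a had none. Outside the mitotic kinesins, a CHR spelling near the start was held by Kif24 at -26, Kif26b at -9 and Kifc5b at 30, whose log2 fold changes were -0.45, -0.38 and 1.14. CCAAT, with or without a CHR spelling, was found in 7 of 11 mitotic windows (63.6%), 4 of 12 transport windows (33.3%) and 36.9% of windows of the genes in the table, and an E2F-like spelling in 2 of 11 mitotic windows (Kif15 and Kif18a), 0 of 12 transport windows and 3.42% of windows of the genes in the table.

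For 5 mitotic and 2 transport kinesins, the regions from 160 bases before to 30 after the start are shown. They are printed 5′ to 3′ on the gene's strand, to let the presence of a CHR spelling be compared with its absence. Of the 2 transport kinesins, Kif3b has a CCAAT match and Kif1c has neither element. The RefSeq span of Kif1c begins at chr11:70700396, so most of its printed region lies within the gene, around a start farther downstream. For Kif3b, Kif23 and Kif18b the start used also lies inside the span of the gene, by fewer bases. Regions at other starts of these genes were not compared. Capitals mark CHR and CCAAT matches on either strand. They lie at chrX:100625905-100626094 on the plus strand, chr9:61946770-61946959 on the minus strand, chr11:102925095-102925284 on the minus strand, chr19:37376222-37376411 on the plus strand, chr17:33890604-33890793 on the minus strand, chr2:153291256-153291445 on the plus strand and chr11:70700388-70700577 on the plus strand (RefSeq, GRCm38.p6), in the order below.
Kif4: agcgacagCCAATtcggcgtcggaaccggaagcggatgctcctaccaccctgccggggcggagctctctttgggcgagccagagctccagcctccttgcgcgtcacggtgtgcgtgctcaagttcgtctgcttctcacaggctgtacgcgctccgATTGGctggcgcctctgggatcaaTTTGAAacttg
Kif23: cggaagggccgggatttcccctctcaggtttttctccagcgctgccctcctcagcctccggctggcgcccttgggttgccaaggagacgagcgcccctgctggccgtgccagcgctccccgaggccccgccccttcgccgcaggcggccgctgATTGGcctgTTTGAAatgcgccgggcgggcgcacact
Kif18b: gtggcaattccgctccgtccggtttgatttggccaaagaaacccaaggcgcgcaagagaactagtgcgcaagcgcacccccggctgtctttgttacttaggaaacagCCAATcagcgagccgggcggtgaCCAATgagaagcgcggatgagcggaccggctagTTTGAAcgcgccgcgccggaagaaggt
Kif11: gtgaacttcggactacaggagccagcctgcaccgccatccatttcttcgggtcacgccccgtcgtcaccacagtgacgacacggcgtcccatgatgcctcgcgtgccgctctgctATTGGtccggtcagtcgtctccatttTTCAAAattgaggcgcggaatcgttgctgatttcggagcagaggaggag
Kifc1: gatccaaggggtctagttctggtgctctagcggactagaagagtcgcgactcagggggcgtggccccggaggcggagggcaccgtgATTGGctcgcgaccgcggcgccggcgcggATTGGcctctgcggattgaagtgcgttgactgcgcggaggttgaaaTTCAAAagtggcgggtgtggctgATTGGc
Kif3b: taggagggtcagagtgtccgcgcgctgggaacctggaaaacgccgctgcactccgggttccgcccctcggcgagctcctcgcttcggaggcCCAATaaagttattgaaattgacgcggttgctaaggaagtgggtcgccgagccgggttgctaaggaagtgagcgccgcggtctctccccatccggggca
Kif1c: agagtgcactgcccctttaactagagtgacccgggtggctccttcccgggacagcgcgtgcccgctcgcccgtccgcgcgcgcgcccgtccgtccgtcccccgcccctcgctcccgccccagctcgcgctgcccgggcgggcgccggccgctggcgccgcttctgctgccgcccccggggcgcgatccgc

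Among the kinesins that form and hold the bipolar spindle, the fitted levels in KO were 2.46 to 2.94 times those in WT. Kif11, the kinesin-5 that slides spindle microtubules apart, had 82.8, 73.2 and 99.5 CPM in KO, against 46.5, 22.3 and 34.9 CPM in WT, a log2 fold change of 1.30 (SE 0.27). Kif15, a kinesin-12 that holds the spindle bipolar beside Kif11, had 54.02, 43.7 and 74.4 CPM in KO, against 22.99, 11.6 and 23.9 CPM in WT, a log2 fold change of 1.55 (SE 0.32). Kifc1, a minus-end directed kinesin that focuses spindle poles, had 48.5, 35.3 and 62.8 CPM in KO, against 21.4, 12.8 and 17.1 CPM in WT, a log2 fold change of 1.51 (SE 0.28). In each of these 3 genes the lowest KO culture was the library labelled KO replicate 2 and the lowest WT culture was WT replicate 2, and the groups did not overlap.

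The 5 mitotic kinesins that act on chromosomes and on microtubule ends, Kif22, Kif4, Kif2c, Kif18a and Kif18b, were higher in KO. Kif22, the chromokinesin that pushes chromosome arms away from the poles, had 52.4, 44.9 and 77.04 CPM in KO, against 25.8, 14.5 and 22.97 CPM in WT, a log2 fold change of 1.46 (SE 0.28). Kif4, a chromokinesin that also orders midzone microtubules with Prc1, had 57.6, 46.3 and 72.3 CPM in KO, against 24.3, 16.2 and 19.3 CPM in WT, a log2 fold change of 1.56 (SE 0.23) and the smallest DESeq2 adjusted p of the family, 8.22e-06. The 3 KO cultures were well separated from the 3 WT cultures in both genes.

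Kif2c, a kinesin-13 that depolymerises microtubules at kinetochores, had 50.6, 44.9 and 68.97 CPM in KO, against 23.3, 12.8 and 21.8 CPM in WT, a log2 fold change of 1.51 (SE 0.27). Kif18a, which shortens kinetochore microtubules and damps chromosome oscillations, had 12.2, 9.57 and 17.002 CPM in KO, against 6.03, 3.55 and 3.39 CPM in WT, a log2 fold change of 1.58 (SE 0.34). Its relative Kif18b, which acts on astral microtubules, had 36.2, 30.02 and 56.03 CPM in KO, against 13.6, 9.55 and 14.1 CPM in WT, with the largest log2 fold change of the family, 1.71 (SE 0.28). No KO culture overlapped a WT culture in any of the 3 genes.

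The kinesins of the central spindle and of abscission were likewise higher in KO. Kif23, the motor subunit of centralspindlin, had 94.7, 72.7 and 131 CPM in KO, against 42.8, 26.2 and 34.2 CPM in WT, a log2 fold change of 1.53 (SE 0.27). Kif20a, which brings the chromosomal passenger complex to the midzone, had 81.7, 75.7 and 122 CPM in KO, against 41.1, 30.04 and 33.6 CPM in WT, a log2 fold change of 1.41 (SE 0.23). KO replicate 3 was the highest of the 6 cultures in both.

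Kif20b, needed for abscission, had 49.9, 35.97 and 55.6 CPM in KO, against 24.3, 13.8 and 18.7 CPM in WT, a log2 fold change of 1.31 (SE 0.26). Kif14, which acts with citron kinase in cytokinesis, had 24.6, 24.5 and 23.4 CPM in KO, against 11.2, 7.16 and 10.9 CPM in WT, a log2 fold change of 1.31 (SE 0.22). Kif14 was the only one of the 12 in which KO replicate 3 was not the highest of the 6 libraries, and its KO cultures spanned 23.4 to 24.6 CPM. Across the 12 mitotic kinesins the ratio of the lowest KO to the highest WT level ran between 1.48 (Kif20b) and 2.12 (Kif18b), the unadjusted edgeR p between 0.000185 and 0.00203 and the adjusted edgeR p was 0.138 for all 12.

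**Figure D2:**
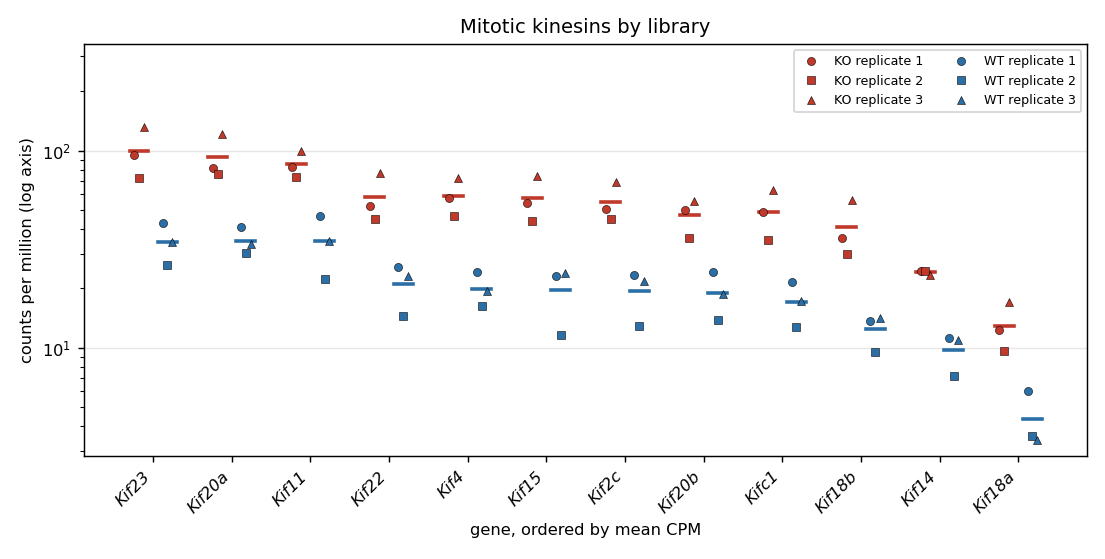
The plot gives the level in CPM of each mitotic kinesin in each of the 3 KO and 3 WT cultures, with group means. For every gene the 3 KO points lie above the 3 WT points.

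KO replicate 3 was the highest of the 6 libraries in 11 of 12 mitotic kinesins and WT replicate 2 the lowest in 11, while WT replicate 1 was the highest WT culture in 10. Leaving out single libraries, DESeq2 called 10 kinesins higher without KO replicate 3, where Kif11 (adjusted p = 0.0620), Kif18a (0.0700), Kifc5b (0.0582) and Kif7 (0.124) were no longer called, 13 without the library labelled KO replicate 2 and 14 in each of the 4 other cases, where without WT replicate 2 Kif1a took the place of Kif7. Over all genes, DESeq2 called 613 higher in KO with all libraries, 175 without KO replicate 3 and 792 without WT replicate 1. Without the library labelled KO replicate 2 all 12 mitotic kinesins kept an unadjusted edgeR p under 0.05 and DESeq2 still called all 12. Mki67, a proliferation marker, had 330.1, 239 and 356 CPM in KO, against 158, 85.9 and 125 CPM in WT. Top2a, the topoisomerase of dividing cells, had 399, 341 and 480.0 CPM in KO, against 199.8, 100.3 and 159 CPM in WT, so both were above all WT cultures in every KO culture. The mitotic sum divided by Mki67 was 1.96, 2.24 and 2.41 in KO, against 1.91, 2.0996 and 2.03 in WT, ranges that overlap.

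Summed over the 12 genes, mitotic kinesins had 645, 537 and 860.0 CPM in KO, against 303, 180.4 and 255 CPM in WT, or 680.7 ± 164.5 CPM in KO and 246.2 ± 61.9 CPM in WT (SD, n = 3 each). The 15 transport kinesins summed to 1412, 1596 and 1282 CPM in KO, against 1841, 2394 and 1857 CPM in WT. The sum of all 39 kinesins overlapped between groups, at 2255, 2363 and 2359 CPM in KO, against 2329, 2825 and 2288 CPM in WT. As a share of all kinesin counts, mitotic kinesins made up 28.6, 22.7 and 36.5% in KO, against 13.03, 6.39 and 11.1% in WT, and the KO and WT shares did not overlap. Transport kinesins made up 62.6, 67.6 and 54.4% in KO, against 79.1, 84.7 and 81.2% in WT, also without overlap. Both shares are parts of the same total, so a higher mitotic share by itself lowers the transport share. The mean transport sum was 1430 CPM in KO and 2031 CPM in WT, a difference that lay largely in Kif5b and Kif1b. Kif5b had means of 571 CPM in KO and 860 CPM in WT, and Kif1b 298 and 542 CPM. KO and WT levels overlapped in the other 12 tested transport kinesins.

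Within the mitotic sum the share of most genes overlapped between the groups. Kif23 held 14.5 ± 0.88% of the mitotic counts in KO and 14.0 ± 0.56% in WT (SD, n = 3 each), and 11 of the 12 genes had overlapping shares. Kif18b had shares of 5.59 to 6.52% in KO and 4.4996 to 5.54% in WT, ranges that nearly touch. Of the transport sum, Kif1c held 10.4 to 15.8% in KO and 8.75 to 10.1% in WT, and the shares of the 14 other transport kinesins overlapped. These shares were not tested. For levels, 13.2% of all tested genes had KO above WT without overlap. The median coefficient of variation between cultures was 27.03% in KO and 26.5% in WT for mitotic kinesins, and 21.9% in KO and 27.1% in WT for transport kinesins.

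**Figure D3:**
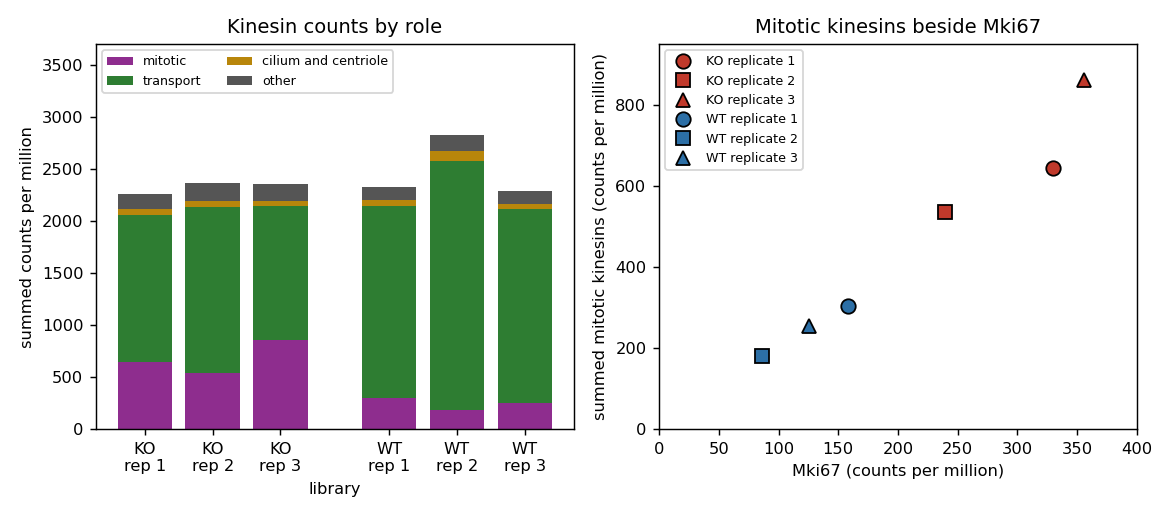
The left panel shows the summed level in CPM of the mitotic, transport, cilium and other kinesins, stacked, in each of the 3 KO and 3 WT cultures. The right panel shows the mitotic sum against the Mki67 level of each culture. The mitotic sum lies between 537 and 860 CPM in KO and between 180 and 303 CPM in WT.

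Transport kinesins were dominated by Kif5b, the conventional kinesin-1 motor. Kif5b had 597, 589 and 526 CPM in KO, against 848, 956 and 775 CPM in WT, a log2 fold change of -0.59 (SE 0.17) with a 95% interval of -0.98 to -0.20. Its unadjusted edgeR p was 0.00876 and its adjusted p was 0.188 by edgeR and 0.0112 by DESeq2. The highest KO culture lay below the lowest WT culture. Of the transport kinesin counts, the gene held 42.3, 36.9 and 41.01% in KO, against 46.1, 39.9 and 41.7% in WT, so its share overlapped while its level did not. Among the markers of differentiation, Myog, a myogenic transcription factor, had 1780.3, 1624 and 970.3 CPM in KO, against 2511, 2018 and 2005 CPM in WT, and Myh3, embryonic myosin, had 11127, 4545 and 3661 CPM in KO, against 8567, 30671 and 24728 CPM in WT. Myog was lower in every KO culture than in any WT culture, and Myh3 overlapped.

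Kif1b, which carries mitochondria and synaptic vesicle precursors, had 335, 333 and 227 CPM in KO, against 411, 739 and 475 CPM in WT, a log2 fold change of -0.86 (SE 0.27) with a 95% interval of -1.49 to -0.23 and an edgeR adjusted p of 0.204 (DESeq2 0.0468). Its WT cultures spread widely, WT replicate 2 being the highest. DESeq2 called Kif1b only in the full set and without WT replicate 1 (adjusted p = 0.0156); Kif5b lost its call without KO replicate 3 (0.144) and without WT replicate 2 (0.0931). At an unadjusted edgeR p under 0.05, 2 of 14 transport kinesins were lower in KO, against 7.83% of all genes. The count was 4 without the library labelled KO replicate 2, where Kif3a and Kifc3 were added, and 1 without KO replicate 3. The shares of all genes in these 2 smaller sets were not analysed here.

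Kif1c, which moves vesicles and RNA, had 147, 212 and 203 CPM in KO, against 169, 209 and 188 CPM in WT, a log2 fold change of -0.01 (SE 0.19) with a 95% interval of -0.44 to 0.42. Kif3a and Kif3b, the paired motors of heterotrimeric kinesin-2, had 69.9, 89.3 and 58.3 CPM in the KO cultures and 99.8, 78.7 and 85.3 CPM in the WT cultures for Kif3a and 61.5, 69.8 and 76.5 CPM in the KO cultures and 87.3, 94.8 and 74.9 CPM in the WT cultures for Kif3b, log2 fold changes of -0.28 (SE 0.19) and -0.31 (SE 0.16). Kifc3, a minus-end directed motor, had 52.6, 94.4 and 56.2 CPM in KO, against 84.8, 96.5 and 64.9 CPM in WT, a log2 fold change of -0.28 (SE 0.26). KO and WT cultures overlapped in all 4 genes.

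Kif13a, which sorts endosomal cargo, had 29.8, 55.5 and 24.9 CPM in KO, against 26.8, 36.3 and 43.2 CPM in WT, and Kif16b, a motor of early endosomes, had 23.3, 31.9 and 21.4 CPM in KO, against 41.7, 28.2 and 23.8 CPM in WT. Kif3c, a kinesin-2, had 25.6, 47.1 and 26.4 CPM in KO, against 31.3, 16.1 and 43.9 CPM in WT. Kif5c, a kinesin-1 of neurons, had 26.7, 19.5 and 29.1 CPM in KO, against 14.6, 22.2 and 36.6 CPM in WT. The library labelled KO replicate 2 was the highest KO culture in 9 of the 14 tested transport kinesins, Kif13a, Kif16b and Kif3c among them.

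The remaining tested transport kinesins, Kif13a, Kif13b, Kif16b, Kif1a, Kif3c, Kif5a, Kif5c and Kifc2, had log2 fold changes of -0.91 to 0.12, and the groups overlapped in all 8. Kif1a, a neuronal vesicle motor, had 14.3, 19.95 and 11.9 CPM in KO, against 3.79, 77.8 and 5.66 CPM in WT, WT replicate 2 lying far above the other WT cultures. Its log2 fold change was -0.91 (SE 1.03) over all libraries and 1.71 without WT replicate 2, where DESeq2 gave an adjusted p of 0.00121. Kif17 had 4 to 21 counts per library and was not tested.

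**Figure D4:**
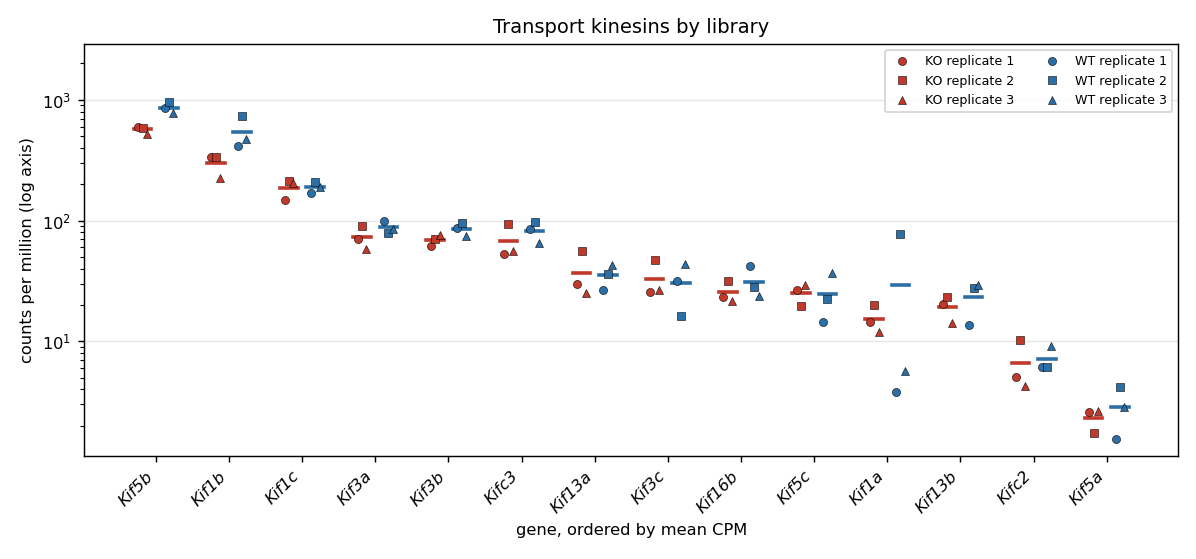
The plot gives the level in CPM of each tested transport kinesin in each of the 3 KO and 3 WT cultures, with group means. For Kif5b and Kif1b all 3 KO points lie below the 3 WT points, and for the other 12 the groups overlap.

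Of the cilium kinesins, Kif7, which sets Hedgehog signalling at the tip of the primary cilium, had 14.7, 16.2 and 16.2 CPM in KO, against 8.53, 8.44 and 10.2 CPM in WT, a log2 fold change of 0.79 (SE 0.19) and an unadjusted edgeR p of 0.00376. Kif7 had an adjusted p of 0.154 by edgeR and 0.00951 by DESeq2, which did not call it without the library labelled KO replicate 2 (0.0606), KO replicate 3 (0.124) or WT replicate 2 (0.0885). The 3 KO cultures were close to each other and above all WT cultures. Kif24, known from human cells as a depolymerase that restrains cilium formation, had 41.8, 41.6 and 32.7 CPM in KO, against 43.7, 79.1 and 36.04 CPM in WT, overlapping groups with a log2 fold change of -0.45 (SE 0.30). Kif9 and Kif27, kinesins linked to motile cilia, had log2 fold changes of -1.03 (SE 0.52) and -0.43 (SE 0.38). Kif9 was at -1.73 without the library labelled KO replicate 2, where DESeq2 called it lower in KO (adjusted p = 0.0439, against 0.295 over all libraries). Kif19a had 2 to 19 counts and Kif6 0 to 6 counts per library, and neither was tested.

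Kif2a, the depolymerising relative of Kif2c, had 79.9, 76.9 and 109 CPM in KO, against 70.4, 93.5 and 66.2 CPM in WT, overlapping groups with a log2 fold change of 0.21 (SE 0.20). Kif21a, a kinesin-4 that restrains microtubule growth at the cortex, had 21.7, 45.5 and 21.6 CPM in KO, against 34.8, 19.2 and 15.7 CPM in WT, a log2 fold change of 0.35 (SE 0.40) that was -0.10 without the library labelled KO replicate 2. Kifc5b had 16.8, 17.98 and 25.5 CPM in KO, against 7.97, 8.501 and 10.9 CPM in WT, a log2 fold change of 1.14 (SE 0.24) and an unadjusted edgeR p of 0.001798, without overlap. It is a near copy of Kifc1, at 96.4% identity over 2342 bases, so reads of the pair may have been divided between them and the values of both are uncertain. Kif21b, Kif26a and Kif26b had log2 fold changes of -0.85 (SE 0.73), -2.12 (SE 1.00) and -0.38 (SE 0.42).

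Some kinesins overlap neighbouring exons on the opposite strand, and the strand setting of the counting is unknown from the labels, although the library kit marks it. Cdc23 overlaps 32.3% of the exon length of Kif20a and Pdzd11 overlaps 15.1% of that of Kif4; their own log2 fold changes were 0.22 and -0.15. Dimt1 overlaps 17.4% of Kif2a and had a log2 fold change of 0.28. Kif3c, Kif7 and Kif26b also overlap neighbouring exons, by 17.1%, 17.5% and 11.6%.

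Levels were also compared between kinesins, per kilobase of exon (CPM per kb, exon lengths from GENCODE vM1 on NCBIM37, whereas the counts are on GRCm38). Kif5b led in both groups, at 77.2 ± 5.25 in KO and 116 ± 12.3 in WT (SD, n = 3 each). In KO, Kif22 (28.2 ± 8.15), Kif1c (26.6 ± 4.95), Kif23 (25.4 ± 7.57) and Kif20a (23.9 ± 6.402) followed, and their SDs overlap. In WT, Kif1b (30.8 ± 9.88), Kif1c (26.8 ± 2.86), Kifc3 (21.8 ± 4.26), Kif3b (15.2 ± 1.78) and Kif3a (14.98 ± 1.84) followed, and the first mitotic kinesin, Kif22 (10.2 ± 2.85), ranked 8 of 39. Kif18a was the lowest mitotic kinesin on this scale, at 1.32 ± 0.383 in KO and 0.4396 ± 0.1505 in WT.

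Cenpe, the kinetochore kinesin that falls outside the symbol rule, had 113, 110.4 and 131 CPM in KO, against 50.03, 27.4 and 51.2 CPM in WT, a log2 fold change of 1.46 (SE 0.25) without overlap. Stard9 had overlapping groups and a log2 fold change of -0.20 (SE 0.36). Among 20 proteins that mitotic kinesins work with, all 20 log2 fold changes were above 0, with a median of 1.30; at an unadjusted edgeR p under 0.05, 18 were higher (9.88% of all genes) and 0 lower (7.83% of all genes), and DESeq2 called 16 higher (4.13% of all genes). Racgap1, the partner of Kif23 in centralspindlin, had 103, 123 and 148 CPM in KO, against 60.2, 43.1 and 51.4 CPM in WT, a log2 fold change of 1.28 (SE 0.20). Aurkb and Cdca8 of the chromosomal passenger complex had log2 fold changes of 1.78 (SE 0.29) and 1.49 (SE 0.24), and Ccnb1, a mitotic cyclin, 1.62 (SE 0.29). Mapre1 and Numa1, at 0.11 and 0.09, were the 2 whose groups overlapped. In the other 18, KO lay above WT without overlap, which held for 13.2% of all tested genes. The list was chosen with the higher level of mitosis genes in KO known.

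Among 24 tested partners of transport kinesins, 19 log2 fold changes were below 0 and 5 above, with a median of -0.34, and at an unadjusted edgeR p under 0.05 there were 6 lower (7.83% of all genes) and 1 higher (9.88% of all genes). DESeq2 called 0 of the 24, against 6.34% of all genes. Fez1, a kinesin-1 adaptor, was higher in KO at 1.24 (SE 0.41), while Syne1, a nesprin that links nuclei to motors, Map7d1, a recruiter of kinesin-1 to microtubules, and Rab11fip5 were lower, at -0.80 (SE 0.28), -0.67 (SE 0.24) and -0.71 (SE 0.25). Of the kinesin-1 light chains, picked for mention with their values known, Klc1 was at -0.43, Klc2 at -0.38, Klc3 at 0.25 and Klc4 at -0.56 on the log2 scale (KO over WT), and Kifap3, the kinesin-2 accessory subunit, was at -0.40.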

How the data were processed

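Polyadenylated RNA of 3 KO and 3 WT myoblast cultures was sequenced from stranded libraries. Per the submitters' processing notes, the build was GRCm38 and the tools included featureCounts, DESeq2, TopHat2 2.0.8 with Bowtie2, Trimmomatic and FastQC. For their settings, strand option and annotation release the labels give nothing (not given in the sources used here). As deposited by the authors, the series has 1 gene table, whose raw count columns, 1 for each library, entered every test. Per the file headers it also holds the authors' normalized values (signal, counts divided by a size factor, not used), log2 fold changes, p-values and adjusted p-values and a test statistic (score, not used); of these only counts of calls at the adjusted p-values are quoted.

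Genes were kept by edgeR's filterByExpr (14835 of 21778), then TMM-scaled; the quasi-likelihood F test of edgeR 4.0.16 (R 4.3.3) was applied, KO over WT without a block, with Benjamini-Hochberg adjustment over all tested genes and a threshold of 0.05. Alternatives were limma-voom (limma 3.58.1), DESeq2 1.42.0, library totals, no filter, a replicate block and each library left out. DESeq2 size factors in edgeR and a filter at a mean of at least 1 CPM were also run. No 2 libraries agreed within sampling noise. The script was tested on simulated data. Near copies were sought with blastn 2.17.0. Kif2b, Kif12 and Kif28 were not analysed here. Full values are given for mitotic kinesins, the 6 transport kinesins of highest mean CPM, the 2 highest of the cilium and of the other kinesins, and any kinesin with an unadjusted p under 0.05; of each partner list up to 4 genes of smallest p are named. Outside this rule, and chosen after their values were seen, are the library values of Kif13a, Kif16b, Kif3c, Kif5c and Kif1a and the mention of Klc1, Klc2, Klc3, Klc4, Kifap3, Mapre1 and Numa1. The mention of Myod1, Myf5, Pax7 and Cdh15 was chosen in the same way. Members, roles, lists and tests were chosen with earlier results of these data known, among them the higher level of mitosis genes in KO, and the printed promoters were chosen after their matches were seen. RefSeq promoter windows carried no entry for Kif20a, Kifc3, Kif13b, Kif21b, Kif19a, Kif5a, Kifc2 and Kif5b. Depth, 16742457 to 22835394 counts per library, limits the precision of kinesins with few counts.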

Additional observations from a re-analysis of the deposited data

How the results depend on the processing

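The median log2 fold change (KO over WT) of mitotic kinesins was 1.30 to 1.69 with each library left out, that of transport kinesins -0.45 to -0.13 and their difference 1.45 to 2.11; 12 of 12 mitotic kinesins kept an unadjusted edgeR p under 0.05 in every setting run. Scaling by library totals moved the median of all genes to 0.14. The labels do not say that replicate numbers pair the cultures. Correlations of same-numbered deviations were -0.25, -0.07 and 0.05, too few values to show whether cultures were paired. With the replicate block edgeR still called 0 kinesins, and 17 kinesins had an unadjusted p under 0.05. Of these, Kif1b, Kif5b and Kif9 were lower in KO and the others higher. The share of all genes with the block was not analysed here, and without it the share was 17.7%. By DESeq2, calls numbered 941 genes and 16 kinesins and the authors' deposited table gave 15 kinesins among 918 genes, where edgeR called 0. Leaving out single libraries, a DESeq2 alternative added after the data were seen, gave 175 to 792 genes higher and 37 to 746 lower in KO and 0 to 2 kinesins lower. For all genes the lowest counts came without KO replicate 3 and the highest without WT replicate 1. At an unadjusted edgeR p under 0.05, 1 to 4 transport kinesins were lower with a library left out. The matching shares of all genes were not analysed here, and with all libraries 7.83% of all genes were lower. The log2 fold changes of 9 genes changed sign. With a library left out they ran from -0.37 to 0.29 for Kif13a, -1.41 to 1.71 for Kif1a, -0.10 to 0.14 for Kif1c, -0.10 to 0.78 for Kif21a, -0.23 to 0.48 for Kif3c, -0.58 to 0.081 for Kif5a, -0.22 to 0.46 for Kif5c, -0.60 to 0.13 for Kifc2 and -0.72 to 0.065 for Stard9. Kif13a was at -0.0060 and Kif1a at 0.39 with the replicate block, Kif1a at 0.47 with limma-voom, Kif1c at 0.16 and Kifc2 at 0.046 with library totals, and Kif1c at 0.0027 without the filter. The cause was not tested. Kif17, Kif6 and Kif19a had too few counts for a test.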

Other observations

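Cytoplasmic dynein is the motor that carries cargo the opposite way along microtubules from most kinesins. Dynein, its activator dynactin and some of their regulators and cargo adaptors were covered by 24 genes, all tested. Of these, 18 log2 fold changes (KO over WT) were below 0 and 6 above, with a median of -0.16, and edgeR's adjusted p called 0. At an unadjusted edgeR p under 0.05 1 gene was higher (9.88% of all genes) and 1 lower (7.83% of all genes), and DESeq2 called 1 higher (4.13% of all genes) and 1 lower (2.21% of all genes). By both tests these were the regulator Nde1 and the cargo adaptor Bicd2, and no subunit of dynein or dynactin was among them. Nde1, a dynein regulator with a part in mitosis, had 77.7, 75.2 and 103 CPM in KO, against 48.7, 45.7 and 57.7 CPM in WT, a log2 fold change of 0.75 (SE 0.18) and a DESeq2 adjusted p of 0.0182. Bicd2, a dynein cargo adaptor, had 338, 402 and 265 CPM in KO, against 477, 685 and 536 CPM in WT, a log2 fold change of -0.76 (SE 0.22) and a DESeq2 adjusted p of 0.0325. The KO and WT cultures did not overlap in either gene. Dynll2, a dynein light chain, was at -0.31 (SE 0.14) and Dync1i1, an intermediate chain, at -0.57 (SE 0.29).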
